A study of Drosophila melanogaster with 2 samples.

Results

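D1 peaks on chromosome 4 of Drosophila melanogaster are described here. They are all the peaks of the pooled D1 peak list that lie on that chromosome, 870 of 30000 peaks, whatever their strength. The comparison group is the 29130 pooled peaks on the other arms (2L, 2R, 3L, 3R and X). Chromatin came from whole pupae aged 24 hours of a transgenic line that carries D1 with a GFP tag at its C terminus. It was sonicated to a size range of 200 to 800 and precipitated with an antibody against GFP in 2 biological replicates of 1 line. Sex was not collected, and every replicate carries the tagged protein; no untagged or mock sample is among the files analysed here, although a control file was used when the authors called the peaks. The authors' files hold 4 peak lists: 30000 peaks of each replicate alone, 30000 peaks of both together (the pooled list), and 3388 peaks that passed their test of reproducibility (the IDR set). Chromosome 4 held 886 peaks in the replicate 1 list, 836 in the replicate 2 list and 66 in the IDR set. Whole pupae mix all tissues, so a peak cannot be placed in a cell type.

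D1 is a chromosomal protein with many AT-hooks, short motifs that hold the minor groove of DNA rich in A and T, and satellite repeats of that composition are its best studied targets. Chromosome 4, the dot chromosome, is the smallest chromosome of the fly. It is known as a mixture of active genes and heterochromatin: its genes are transcribed although HP1a and the chromosome-specific protein Pof coat much of it, and fragments of transposable elements such as INE-1 and 1360 lie between and within the genes.

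The sequences at the highest peaks show what the antibody recovered, and those of a middle and of weak peaks stand beside them. Each is the 141 bases centred on a pooled summit, the position the authors' caller gives as the highest point of a peak. They were read from the forward strand of the Release 6 assembly (dm6), and capitals mark runs of at least 8 bases made only of A and T. The first lies in an intron of Mitf (chr4:1199377-1199517), the second upstream of a start of pan (chr4:89806-89946), the third upstream of toy (chr4:989556-989696), the fourth between genes near lncRNA:CR43437 (chr4:424787-424927), the fifth at ATPsynbeta (chr4:1032020-1032160), the next at another start of Mitf (chr4:1218839-1218979) and the last in an intron of Pur-alpha (chr4:558951-559091). These are the peaks ranked 1 to 5, 8 and 12 by signal on the chromosome; windows of the peaks ranked 6, 7, 9, 10 and 11 overlap a UTR and are not shown. The Ank sequence (chr4:127092-127232) belongs to a peak in the middle of the chromosome's ranking, and those near Cadps (chr4:1240610-1240750) and Slip1 (chr4:664274-664414) to 2 of its lowest peaks.
Mitf intron: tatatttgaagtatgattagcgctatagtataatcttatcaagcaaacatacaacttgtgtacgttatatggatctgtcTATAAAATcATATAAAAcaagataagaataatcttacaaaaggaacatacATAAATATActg
pan: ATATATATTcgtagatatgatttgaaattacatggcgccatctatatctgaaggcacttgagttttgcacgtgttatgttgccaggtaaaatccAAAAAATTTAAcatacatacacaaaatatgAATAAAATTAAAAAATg
toy: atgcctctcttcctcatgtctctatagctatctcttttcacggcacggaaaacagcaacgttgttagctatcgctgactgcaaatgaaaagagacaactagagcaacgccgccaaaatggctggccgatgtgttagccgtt
lncRNA:CR43437: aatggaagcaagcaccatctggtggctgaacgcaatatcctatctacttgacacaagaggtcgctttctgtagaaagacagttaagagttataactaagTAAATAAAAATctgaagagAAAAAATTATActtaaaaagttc
ATPsynbeta: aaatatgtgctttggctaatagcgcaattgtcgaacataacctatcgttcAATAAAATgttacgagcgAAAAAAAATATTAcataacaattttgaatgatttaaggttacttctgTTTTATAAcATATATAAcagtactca
Mitf second start: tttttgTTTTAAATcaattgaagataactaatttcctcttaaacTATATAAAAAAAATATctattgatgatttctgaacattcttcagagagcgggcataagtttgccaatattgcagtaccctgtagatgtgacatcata
Pur-alpha: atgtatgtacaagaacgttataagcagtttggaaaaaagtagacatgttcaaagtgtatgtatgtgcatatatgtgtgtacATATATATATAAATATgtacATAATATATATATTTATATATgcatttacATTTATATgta
Ank: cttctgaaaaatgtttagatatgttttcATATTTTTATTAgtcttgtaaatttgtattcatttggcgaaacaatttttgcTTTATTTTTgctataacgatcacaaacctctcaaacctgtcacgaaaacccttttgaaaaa
Cadps: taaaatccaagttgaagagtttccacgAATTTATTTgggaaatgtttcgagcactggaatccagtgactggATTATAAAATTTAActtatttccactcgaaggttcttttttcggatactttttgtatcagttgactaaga
Slip1: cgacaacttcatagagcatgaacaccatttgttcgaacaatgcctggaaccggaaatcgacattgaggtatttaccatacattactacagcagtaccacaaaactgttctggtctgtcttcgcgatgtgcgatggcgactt
The Pur-alpha sequence was 77.3% A and T with 45 bases in such runs, and the pan sequence was 71.6% with 36 bases. The toy sequence, from the peak ranked 3 on the chromosome, was 52.5% A and T and held no run. The weak Slip1 peak also held none, at 55.3%, whereas the weak Cadps peak held 23 bases in runs at 66.7%. A long A/T run was therefore neither present in every high peak nor absent from the low ones.

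A further set is shown because it carries a word that was common at the strongest chromosome 4 promoter peaks. CGATA is known as a word bound by the insulator protein BEAF-32 in Drosophila, and it is part of TATCGATA, the word of the promoter factor DREF. Each sequence is 55 bases of the forward strand around a CGATA (or TATCG, the same word on the other strand) within 100 bp of an IDR summit at a promoter, and capitals mark every copy. They lie at chr4:989599-989653 (toy), chr4:1032037-1032091 (ATPsynbeta), chr4:1084884-1084938 (Actbeta), chr4:43791-43845 (PlexB), chr4:697576-697630 (ey), chr4:958491-958545 (4E-T), chr4:67287-67341 (RpS3A), chr4:1027138-1027192 (PlexA) and chr4:660620-660674 (gw), outside annotated UTRs.
toy: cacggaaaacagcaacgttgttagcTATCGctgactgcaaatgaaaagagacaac
ATPsynbeta: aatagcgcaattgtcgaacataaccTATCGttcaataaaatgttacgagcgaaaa
Actbeta: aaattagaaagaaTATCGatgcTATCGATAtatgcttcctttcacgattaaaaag
PlexB: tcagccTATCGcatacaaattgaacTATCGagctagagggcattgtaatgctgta
ey: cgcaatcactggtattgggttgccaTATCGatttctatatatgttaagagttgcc
4E-T: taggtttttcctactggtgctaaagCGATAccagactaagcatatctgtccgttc
RpS3A: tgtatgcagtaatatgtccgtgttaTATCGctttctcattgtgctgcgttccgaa
PlexA: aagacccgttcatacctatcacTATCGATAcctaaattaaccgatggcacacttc
gw: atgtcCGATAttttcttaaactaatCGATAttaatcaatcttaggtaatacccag
The sequences shown are some of those available outside UTRs. At toy the word sat on the summit itself, and at RpS3A it was 4 bp away. These are close cases: over the 25 promoter windows with the word the median distance of the nearest copy was 53 bp. At Actbeta and PlexA the word overlaps its own reverse complement and makes the full TATCGATA.

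Chromosome 4 carried D1 peaks more densely than the other arms did. It held 654 pooled summits per Mb of sequence without N (exact 95% Poisson interval 611 to 698), against 220 per Mb over the other arms (218 to 223). The replicate lists gave 666 and 628 per Mb on chromosome 4. The ratio to the other arms was 2.97 in the pooled list and 2.94 ± 0.124 over the replicate lists (SD, n = 2). Among the other arms the densest was 3L with 267 per Mb and the sparsest 2R with 167 per Mb, so chromosome 4 stood above the whole range of the others. In all, 2.90% of the pooled peaks fell on 0.996% of the sequence. With 2 replicates of 1 group no test over samples could be made, here or below; intervals are for counting error only, SDs are between the replicate lists, and read depth is unknown. The pooled list and both replicate lists were each 30000 peaks long, so a density is a share of a fixed number of peaks and not an amount of binding. No control file was analysed here, so the part of local background or copy number in the density of chromosome 4 was not tested.

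The excess was smaller among the strongest peaks. In the IDR set chromosome 4 had 49.6 summits per Mb (38.3 to 63.1) against 25.1 on the other arms (24.3 to 26.0), a ratio of 1.97. The pooled list was split into 10 groups of 3000 peaks by the deposited signal, the authors' value of each peak, whose scale is unknown. The group with the highest signal held 61 chromosome 4 peaks and a density 2.06 times that of the other arms. The IDR peaks of chromosome 4 were its 66 highest pooled peaks, so these 61 are among them. The ratios of 1.97 and 2.06 thus rest on nearly the same chromosome 4 peaks. Group 4 held 105 and a ratio of 3.61, and the last group held 77 and a ratio of 2.62. Of the chromosome 4 peaks 7.59% were in the IDR set (exact binomial interval 5.92 to 9.55), against 11.4% of the peaks on the other arms (11.04 to 11.77). The 3388 highest pooled peaks gave the same counts as the IDR set, 66 on chromosome 4 and 3322 on the other arms. These shares are thus read as shares among the highest signals and not as a separate measure of reproducibility. The median signal was close in both, 65.18 on chromosome 4 and 64.02 on the other arms, but the highest chromosome 4 peak reached 409 and rank 245 of the pooled list, against 1204 on the other arms. Chromosome 4 thus held more peaks than its length in the highest group as well, 2.03% of them on 0.996% of the sequence, and the excess was larger in groups of middle signal.

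Chromosome 4 is richer in A and T, and the ratio to the other arms was smaller between tiles of equal AT content. Its 200 bp tiles averaged 64.7% A and T, against 57.8% on the other arms. Tiles of 65 to 70% A and T held a pooled summit in 15.3% of cases on chromosome 4 and 6.42% on the other arms. At 50 to 55% the shares were 7.71% on chromosome 4 and 3.14% on the other arms, and at 75 to 80% they were 16.3% on chromosome 4 and 8.83% on the other arms. In each 5-point class with at least 100 chromosome 4 tiles the chromosome 4 share was the higher. From the other arms' shares in 2-point AT classes 386 chromosome 4 tiles would have held a summit, and 870 did, a ratio of 2.25 in the pooled list and 2.24 ± 0.0747 over the replicate lists (SD, n = 2). With feature class also held equal the ratio was 2.45, and 2.44 ± 0.109 over the replicate lists (SD, n = 2).

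**Figure D1:**
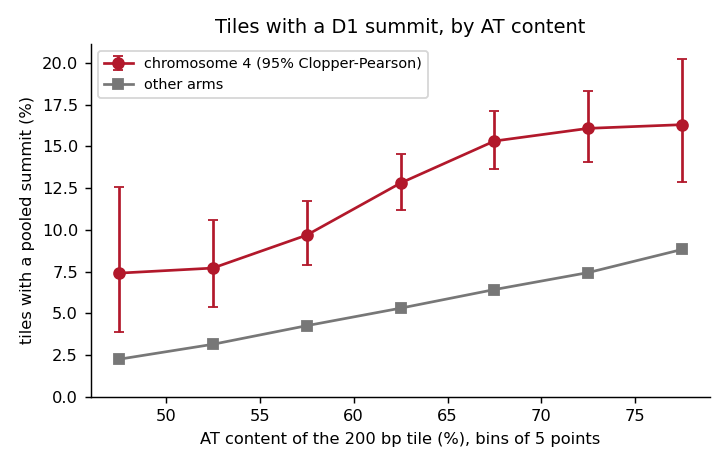
Share of 200 bp tiles with a pooled D1 summit (vertical axis, percent) against the AT content of the tile (horizontal axis, percent) for chromosome 4 (red circles, with exact 95% binomial intervals) and the other arms (grey squares). Only AT classes with at least 100 chromosome 4 tiles are drawn, and chromosome 4 lies above the other arms in each, for example 15.3% and 6.42% at 65 to 70%.

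For the IDR set the same comparison gave little excess. The IDR set had 66 chromosome 4 tiles with a summit where 56.0 were expected at equal AT content, a ratio of 1.18. At 70 to 75% A and T an IDR summit lay in 1.26% of chromosome 4 tiles and 1.30% of tiles on the other arms. Across the 10 groups of the pooled list the equal-AT ratio was 1.23 in the highest, 2.76 in group 4 and 2.21 in the last. The highest group and the IDR set share nearly all their chromosome 4 peaks, so 1.18 and 1.23 are not separate results. When the centromere-proximal segments of the other arms were set aside, the equal-AT ratio was 1.93 for the pooled list and 0.978 for the IDR set. The excess at equal AT content was therefore larger in the peaks below the highest group.

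**Figure D2:**
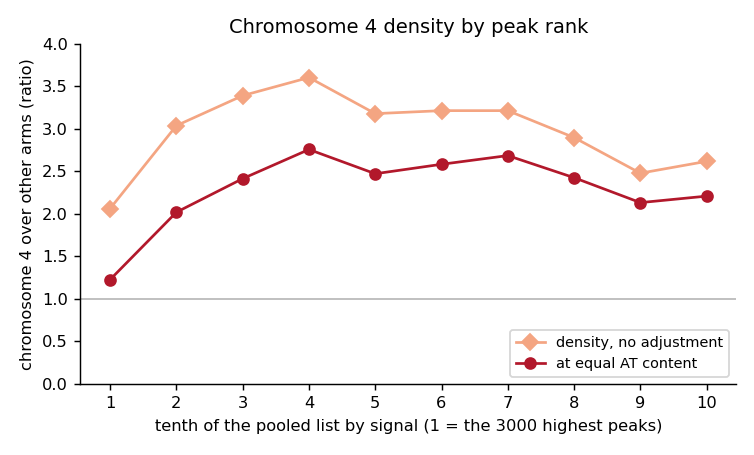
Density of pooled summits on chromosome 4 over that on the other arms (vertical axis, ratio) for 10 groups of 3000 pooled peaks from the highest to the lowest signal (horizontal axis), without adjustment (orange diamonds) and at equal AT content of 200 bp tiles (red circles). The grey line marks equal density. The highest group lies at 2.06 and 1.23, group 4 at 3.61 and 2.76.

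Repeats touch how well reads can be placed, and chromosome 4 differs from the other arms in this too. The share of 31-base words found once in the genome was 84.2% on chromosome 4 and 87.4% on the other arms. Tiles made of such words alone held a pooled summit in 16.1% of cases on chromosome 4 (747 of 4651) and 5.20% on the other arms. Tiles with over 50% repeated words held one in 0.898% on chromosome 4 (9 of 1002) and 0.0453% on the other arms. Within unique tiles the equal-AT ratio was 2.14, so an excess of nearly the same size was found where every word was unique.

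Peaks ran along most of the chromosome, with 32 gaps of over 5 kb between neighbouring pooled summits. In 100 kb bins from the assembly's start the pooled list had 69, 70, 64, 68, 72, 62, 67, 49, 73, 61, 74 and 94 summits in the 12 full bins. The bin with the most in the pooled list, from 1.1 to 1.2 Mb, had 94 there (exact interval 760 to 1150 per Mb), 88 in the replicate 1 list and 86 in the replicate 2 list. In the replicate 1 list the bin before it, from 1.0 to 1.1 Mb, had 89 and so the most. With bins of 50 kb the densest pooled bin was instead near the other end, from 50 to 100 kb, with 53 summits (1060 per Mb). The bin from 1.1 to 1.2 Mb holds 10 protein-coding genes and has 93.1% unique words, against 59.7% in the first bin, which had 69 pooled summits at the same AT content of 66.7%. The bin with the fewest among the full bins, from 0.7 to 0.8 Mb, had 49 in the pooled list (363 to 648 per Mb), 50 in the replicate 1 list and 42 in the replicate 2 list. The last bin, 48.1 kb long, had 1 pooled summit; 95.4% of it is annotated transposable element and 8.37% of its words are unique.

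**Figure D3:**
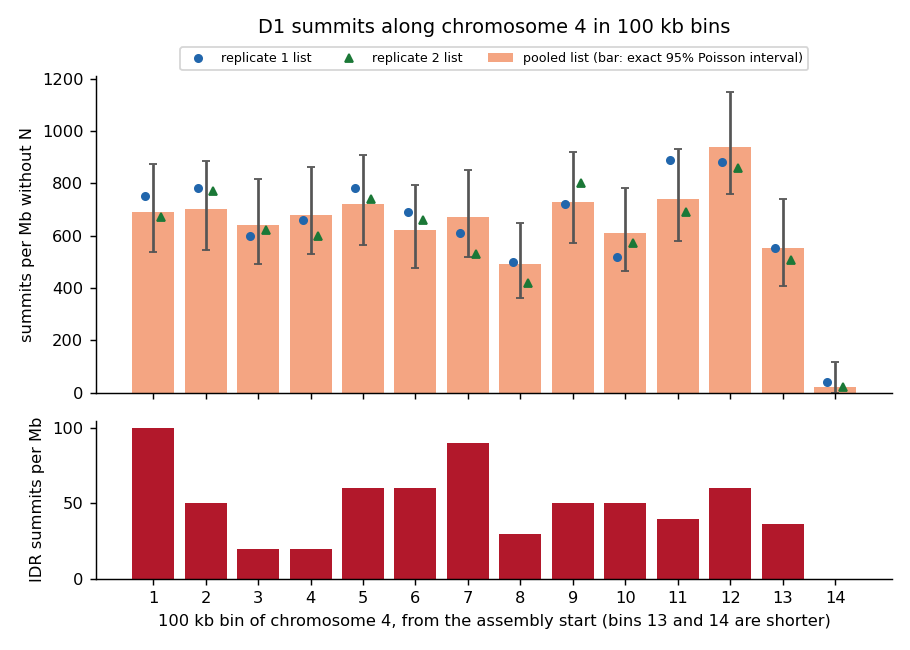
Upper panel, D1 summits per Mb of sequence without N (vertical axis) in the 14 bins of 100 kb along chromosome 4 (horizontal axis, bin number), for the pooled list (bars with exact 95% Poisson intervals), the replicate 1 list (blue circles) and the replicate 2 list (green triangles). Lower panel, IDR summits per Mb. The other 11 full bins lie between 490 and 740 pooled summits per Mb, bin 12 reaches 940, and bin 14 is nearly empty.

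The IDR peaks followed another order. The first bin held 10 of them and the seventh held 9, while the third and the fourth held 2 each. Bin 12, which had the most pooled summits, held 6. The median distance between neighbouring pooled summits was 940 bp on chromosome 4 (quartiles 583 and 1653) and 1245 bp on the other arms. It was 918 bp and 944 bp in the replicate lists. Pooled peaks were 420 bp wide in 868 of 870 cases, and they covered 25.1% of the chromosome, against 8.55% of the other arms. On chromosome 4, 38.3% of peaks overlapped another peak, against 31.9% on the other arms. Joined into continuous regions the chromosome 4 peaks made 694 (521 per Mb), against 184 regions per Mb on the other arms. The longest such region held 4 peaks over chr4:1112847-1113981, across the 3′ ends of Cals, which encodes a calsyntenin, and sv, a Pax-family transcription factor.

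The widest stretches without a pooled summit were of different kinds. The widest, 46.3 kb between summits at 1272435 and 1318704, is covered by annotated transposable elements almost in full and has 16.9% unique words. The next, 36.4 kb between 4547 and 40920, includes much of PlexB and has 9.38% unique words. The third, 27.5 kb between 743257 and 770793, lies inside bt, the gene of the giant muscle protein projectin. It has 99.8% unique words, 59.9% A and T, and coding exons over 72.4% of its length; the replicate 1 list placed 4 summits there and the replicate 2 list 1. The fourth, between 1199646 and 1218909, holds the 17000 bases of N in the assembly, from 1200663 to 1217662, within Mitf. Its bases other than N were 94.1% A and T. The fifth, 12.04 kb between 163349 and 175387 in CG33978, is 68.8% coding with 99.5% unique words, and had 7 summits in the replicate 1 list and 2 in the replicate 2 list. Long stretches without a pooled summit thus lay in repeats, in the assembly gap and in long coding exons.

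By gene feature, promoters held more summits than their length. A promoter here is the sequence within 500 bp of an annotated start. On chromosome 4, 18.7% of pooled summits lay in promoters (163 of 870; 16.2 to 21.5), which make up 10.9% of its bases, and the replicate lists gave 18.5 ± 0.800% (SD, n = 2). On the other arms 21.3% of summits lay in promoters, which make up 13.6% of bases. Introns held 40.3% of chromosome 4 summits against 41.9% of its bases, 3′ UTRs 11.03% against 8.07%, coding exons 12.99% against 18.2%, and intergenic sequence 14.4% against 18.4%. Coding exons and intergenic sequence thus held a smaller share of summits than of bases. The intron share (37.1 to 43.7) was close to that of bases. On the other arms introns held 48.2% of summits on 39.5% of bases.

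The IDR peaks were mostly at promoters. Of the 66, 38 lay in a promoter, which is 57.6% (44.8 to 69.7), 11 in an intron, 11 between genes, 4 in a 3′ UTR, 1 in a coding exon and 1 in another exon. On the other arms 37.1% of IDR summits lay in promoters (35.5 to 38.8) and 39.5% in introns. Along the ranking of chromosome 4 peaks the promoter share was 57.4% in the highest group of 3000 pooled peaks, 21.2% in group 3 and 5.19% in the last. All chromosome 4 peaks of the highest group are also IDR peaks. Pooled promoter summits lay on both sides of the start, 52.1% of them upstream with a median of −14 bp. IDR promoter summits were upstream in 68.4% of cases with a median of −70.5 bp, against 78.8% and −165 bp on the other arms.

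Compared by class with the other arms, coding exons differed most in the pooled list. Chromosome 4 had 466 pooled summits per Mb of coding exon, against 27.6 per Mb on the other arms, a ratio of 16.8. The ratio was 5.96 in 3′ UTRs, 3.27 in promoters, 2.67 in intergenic sequence and 2.34 in introns. Coding exons are 59.98% A and T on chromosome 4 and 48.0% on the other arms. At equal AT content the coding-exon ratio was 7.80, with 110 tiles where 14.1 were expected, and 7.98 ± 1.52 over the replicate lists (SD, n = 2). The equal-AT ratio was 4.34 in 3′ UTRs, 2.43 in intergenic sequence, 2.32 in promoters and 1.90 in introns. In coding tiles of 60 to 65% A and T, 10.4% held a summit on chromosome 4 (40 of 383; 7.57 to 13.9) and 0.999% on the other arms.

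**Figure D4:**
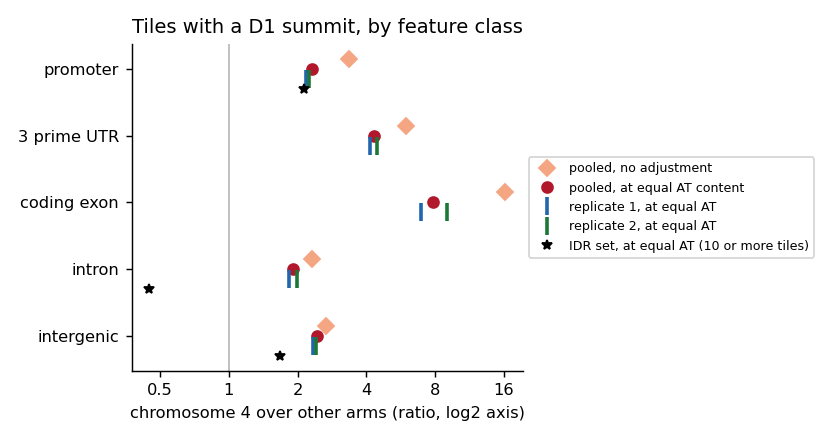
Share of 200 bp tiles with a summit on chromosome 4 over that on the other arms (horizontal axis, ratio on a log2 axis) in the 5 feature classes with most pooled tiles (vertical axis): pooled list without adjustment (orange diamonds), pooled list at equal AT content (red circles), replicate lists at equal AT content (blue and green bars) and the IDR set at equal AT content where it has 10 or more tiles (black stars). Coding exons lie farthest right at 7.80 at equal AT content, and the IDR star for introns lies left of 1 at 0.450.

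The coding-exon summits were weak peaks spread over many genes. The 113 pooled summits lay within the bounds of 53 genes and had a median signal of 54.9, below the 65.2 of all chromosome 4 peaks. Every gene that spans a summit is counted, also one whose own coding exon does not hold it. Of these 113, 37 had a summit within 100 bp in both replicate lists, and 103 in at least 1. Among all 870 pooled peaks of chromosome 4, 381 (43.8%) had one in both lists. By the same count Cadps, which acts in the release of dense-core vesicles, spanned 7 of the coding-exon summits, bt 6 and sv 5. The strongest, in PlexA, a semaphorin receptor, had a signal of 204 in the pooled list, 76.5 in the replicate 1 list and 130 in the replicate 2 list, and was the only coding-exon peak in the IDR set. The IDR set moved the other way in introns: at equal AT content 10 intron tiles held an IDR summit where 22.2 were expected, a ratio of 0.450, whereas promoters had 40 tiles where 18.8 were expected, a ratio of 2.13.

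Transposable element fragments held fewer summits than the sequence around them. Annotated elements make up 25.1% of chromosome 4 and held 12.99% of its pooled summits (113; 10.8 to 15.4), and 11.9 ± 0.816% over the replicate lists (SD, n = 2). The density was 338 per Mb inside elements and 759 per Mb outside. On the other arms it was 36.6 per Mb inside and 231 per Mb outside. INE-1 fragments, of which 84.5% of words are unique, make up 7.31% of bases and held 6.21% of summits (4.70 to 8.02). That interval includes their share of bases. On the other arms INE-1 fragments had 281 summits per Mb, against 220 per Mb outside them. Fragments of 1360, with 33.4% unique words, make up 3.84% of bases and held 2.41% of summits. The other families make up 15.9% of bases with 34.9% unique words, and held 5.29% of summits. The part of read placement in these differences was not tested. All 4 IDR summits inside an element were in INE-1.

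The AT content at chromosome 4 summits was close to that of the chromosome. The 200 bp at pooled summits averaged 65.9% A and T (SD over peaks 6.62, n = 870), 1.18 points above all chromosome 4 tiles, while the other arms averaged 62.0%, 4.23 points above theirs. The replicate lists gave 66.1 ± 0.571% on chromosome 4 (SD, n = 2). The small difference did not hold in every class. Pooled intergenic summits were 2.73 points above intergenic tiles, beside 2.63 points on the other arms. The difference on chromosome 4 was 0.753 points in promoters, 0.400 in coding exons, 0.0903 in introns and −0.323 in 3′ UTRs. IDR summits averaged 67.7% on chromosome 4, 2.96 points above its tiles, and 66.5% on the other arms, 8.75 points above theirs. The chromosome 4 IDR windows ranged over 52.5 to 77.5%, with toy at the lowest value. IDR summits of chromosome 4 and of the other arms thus had nearly the same AT content on very different surroundings.

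Averaged around the summit, the A/T peak seen on the other arms had no counterpart on chromosome 4. The 40 bp at IDR summits were 66.8% A and T on chromosome 4, below the 69.0% at 200 to 500 bp from the summit. On the other arms they were 68.5% at the summit and 57.1% at 200 to 500 bp. For the pooled list the values on chromosome 4 were 65.3% at the summit and 66.8% at 200 to 500 bp, and on the other arms 62.3% and 59.2%.

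**Figure D5:**
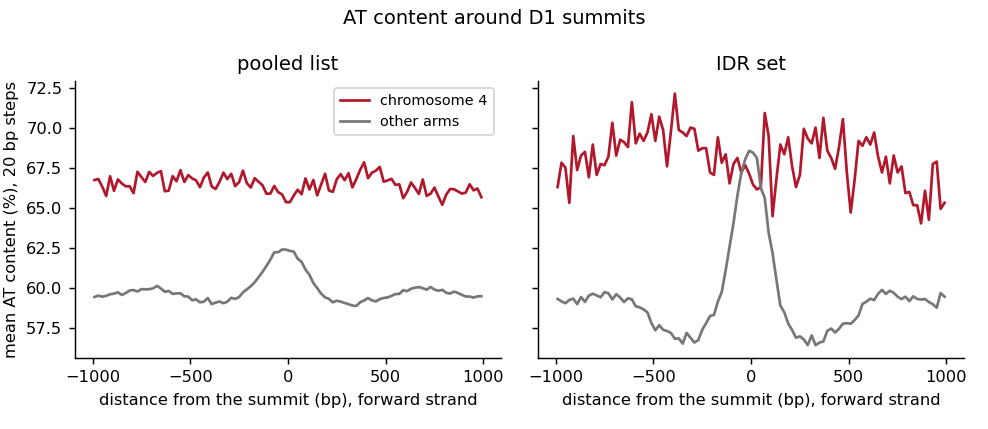
Mean AT content in 20 bp steps (vertical axis, percent) by distance from the summit on the forward strand (horizontal axis, bp) for the pooled list (left) and the IDR set (right), on chromosome 4 (red) and the other arms (grey). The other arms rise at the summit, to 68.5% in the IDR set, while chromosome 4 shows no such rise, with 66.8% at the summit in the IDR set.

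Of the 8 words searched on both strands in the 200 bp at each summit, AATAT, the unit of an A/T-rich satellite, was in 73.9% of pooled and 90.9% of IDR windows of chromosome 4 (60 of 66; 81.3 to 96.6), against 69.8% of all its tiles. On the other arms it was in 74.7% of IDR windows and 48.4% of tiles. Runs of at least 8 A or T bases were in 91.0% of pooled windows and 87.7% of tiles on chromosome 4, and in 86.4% and 70.1% on the other arms. TATAAA was in 39.4% of IDR windows and 38.2% of tiles on chromosome 4, and in 39.5% and 21.5% on the other arms. A/T-rich words were thus common both in and out of chromosome 4 peaks. GAGAG, the word of GAGA factor, was in 24.2% of chromosome 4 IDR windows and 17.5% of chromosome 4 tiles. In the same windows and tiles of chromosome 4, AAAAAAAA was in 16.7% and 12.2%, ATATATAT in 9.09% and 6.31%, and GGTCACAC in 3.03% and 0.316%, the last from 2 peaks.

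CGATA, shown in the second set of sequences, was more frequent in chromosome 4 IDR windows than in its tiles or in IDR windows of the other arms. It was in 47.0% of chromosome 4 IDR windows (31 of 66; 34.6 to 59.7) and 25.04% of chromosome 4 tiles, and on the other arms in 21.6% of IDR windows and 21.3% of tiles. In the pooled list of chromosome 4 CGATA was in 29.1% of windows (26.1 to 32.2), nearer to the share of tiles. At promoters, a split chosen after the first values were seen, it was in 65.8% of chromosome 4 IDR windows (25 of 38; 48.6 to 80.4) and 30.2% of chromosome 4 promoter tiles. At promoters of the other arms it was in 24.98% of IDR windows and 24.81% of tiles. Pooled windows at chromosome 4 promoters held CGATA in 41.1% of cases (67 of 163). Promoter windows were 25 of the 31 chromosome 4 IDR windows with the word, and 38 of the 66 in all. Promoter tiles were not matched to the summits in distance from the start. Among the 3388 highest peaks of each replicate's own list the chromosome 4 promoter share was 47.2% for replicate 1 and 54.1% for replicate 2. In 12 of the 25 windows the nearest copy lay within 50 bp of the summit, and 8 windows held more than 1 copy. The median distance of the nearest copy was 53 bp in windows that reach 100 bp to each side, so no gathering at the summit was seen. TATCGATA was in 4 of 66 chromosome 4 IDR windows, 6.06%, and 1.80% of tiles. A match is a string of letters and says nothing of which protein was there.

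The replicate lists shared most of the peaks. Of the 870 pooled peaks on chromosome 4, 638 were overlapped by at least 1 bp by a peak in both replicate lists, which is 73.3% (70.3 to 76.2), against 68.5% on the other arms; 13 were overlapped in neither. With summits required to lie within 100 bp the shares were 43.8% on chromosome 4 and 44.1% on the other arms. Peaks cover more of chromosome 4 than of the other arms, with 25.1% against 8.55%, and the part of this in the shares was not tested. All 66 IDR peaks were overlapped in both lists. Over the 381 pooled peaks with a summit within 100 bp in both lists, the log2 ratio of the replicates' signals had an SD of 0.62, across peaks. The Pearson correlation of the log2 signals was 0.563 over these peaks and 0.150 over the 58 of them in the IDR set. The order of the IDR peaks by signal was thus only weakly shared by the replicates. The part of selecting high pooled signals in the lower value was not tested.

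The strongest chromosome 4 peak, at chr4:1199406-1199511 in an intron of Mitf, had a signal of 409 in the pooled list, 189 in the replicate 1 list and 229 in the replicate 2 list. Mitf encodes a transcription factor known for lysosomal genes. This peak is 106 bp wide, its summit lies 589 bp from a start, and the assembly gap begins about 1.2 kb away. Between the pooled summits on either side of that gap, at 1199646 and 1218909, the bases other than N were 94.1% A and T. The part of this neighbouring sequence in the signal was not tested. On the other side of the gap a second Mitf peak, 131 bp upstream of a start, had 253 in the pooled list and 124 in the replicate 1 list, with the nearest replicate 2 summit 105 bp away. Both replicate lists thus placed the intron peak among their strongest, at rank 337 of replicate 1 and rank 182 of replicate 2.

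Several other transcription factor genes had strong peaks. The start of pan, the TCF factor of Wingless signalling, had a signal of 337 in the pooled list and 162 in the replicate 1 list at 479 bp upstream, and the nearest replicate 2 summit lay 135 bp away. The start of toy, a Pax6 gene of eye development, had 309 in the pooled list, 124 in the replicate 1 list and 186 in the replicate 2 list. Its relative ey, the other Pax6 gene, had 188 in the pooled list, 105 in the replicate 1 list and 91.6 in the replicate 2 list, 54 bp upstream. In each of these genes the pooled summit lay upstream of the start. The start of ci, the Gli-family factor of Hedgehog signalling, had 242 in the pooled list, 124 in the replicate 1 list and 140 in the replicate 2 list. That of pho, a DNA-binding Polycomb-group protein, had 221, 95.7 and 129 in the same lists. An intron of zfh2, a zinc finger homeodomain factor, had 226, 125 and 136, at 7039 bp from the start. Of the 15 transcription factor and cofactor genes listed on chromosome 4, 14 had a pooled summit at a start and 9 an IDR summit. Over all 80 protein-coding genes of chromosome 4 the shares were 92.5% and 48.8%, so the pooled count is close to that of the chromosome as a whole. The genome-wide shares were 26.7% of all protein-coding genes with a pooled summit and 8.46% with an IDR summit (28.7% and 27.5% in the replicate 1 and replicate 2 lists).

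Genes of ligands, receptors and signalling gave similar counts. All 12 listed had a pooled summit at a start, in both replicate lists as well, and 9 had an IDR summit, beside 92.5% and 48.8% of the chromosome's protein-coding genes. Actbeta, an activin-type ligand, had a signal of 223 in the pooled list, 96.3 in the replicate 1 list and 126 in the replicate 2 list, 121 bp upstream of its start. An intron of myo, which encodes the related ligand myoglianin, had 299, 138 and 160 in the same lists, 856 bp from the start. PlexB, a semaphorin receptor, had 214, 75.3 and 139, 7 bp from its start. Ank, an ankyrin that links membrane proteins to spectrin, had 204 in the pooled list, 141 in the replicate 1 list and 59.8 in the replicate 2 list, at ranks 720 and 6373 of those lists. The start of the kinase gene Dyrk3 had 232, 98.5 and 75.1, and this peak is shared with the start of Cadps on the other side. An intron of Asator, a tau-tubulin kinase, had 199 in the pooled list and 115.3 in the replicate 2 list, with the nearest replicate 1 summit 190 bp away. Of the highest peaks in no list, the start of CG32017 had 228 in the pooled list, 54.0 in the replicate 1 list and 107 in the replicate 2 list.

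Genes of general upkeep and of synapses were counted in the same way, against the same shares of 92.5% and 48.8% on chromosome 4; differences between the lists were not tested. Of the 14 genes of translation, mitochondria and general upkeep, 13 had a pooled summit at a start and 9 an IDR summit. ATPsynbeta, a subunit of the mitochondrial ATP synthase, had a signal of 302 in the pooled list, 97.1 in the replicate 1 list and 211 in the replicate 2 list. Rad23, which carries ubiquitinated proteins to the proteasome, had 280, 136 and 140 in the same lists. The ribosomal protein gene RpS3A had 160, 67.1 and 95.5. The small GTPase gene Arl4 had 178, 66.9 and 107, and 4E-T, a partner of the cap-binding protein eIF4E, had 177 in the pooled list and 110 in the replicate 1 list, with the nearest replicate 2 summit 107 bp away. Of the 10 synaptic and neuronal genes 9 had a pooled summit at a start and 3 an IDR summit: Cadps, unc-13 and Ekar. The start of unc-13, which primes synaptic vesicles, had 160, 66.2 and 100.9, and that of the kainate receptor gene Ekar had 164, 43.6 and 81.3. At Cals the strongest peak lay not at a start but in the 3′ UTR, with 196, 91.4 and 131. The lists were chosen with earlier results of these data known, so their counts describe them only.

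Over all protein-coding genes the pattern was nearly general. Of the 80 on chromosome 4, 74 had a pooled summit within 500 bp of a start, which is 92.5% (84.4 to 97.2), against 26.3% of 13865 genes on the other arms and 26.7% of all 13945. The replicate lists gave 73 and 72 genes, or 90.6 ± 0.884% (SD, n = 2), where all genes gave 28.7% and 27.5%. An IDR summit lay at a start of 39 of the 80 genes, 48.8% (37.4 to 60.2), against 8.23% on the other arms. Genes with 1 annotated start alone gave 88.1% on chromosome 4 (37 of 42) and 20.4% on the other arms in the pooled list, and 47.6% and 5.61% in the IDR set. Among genes with 1 start the shares thus lay as far apart as among all genes. The denser peaks of chromosome 4 raise any such share, and the part of density in it was not tested.

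The 6 genes without a pooled summit at a start were CG11155, onecut, CG1909, dpr7, ND-49 and Mpv17. The nearest summit to a start was 615 bp away at CG11155, 575 bp at onecut, a transcription factor gene, 766 bp at CG1909, 1034 bp at dpr7, a neuronal cell-surface protein gene, and 598 bp at ND-49, a subunit of mitochondrial complex I. At Mpv17, the last of the 6, it was 2108 bp away. In 4 of the 6 a summit thus lay within 1000 bp of a start.

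Chromosome 4 genes are long, with a median length of 10090 bp against 2156 bp on the other arms, and most summits lay inside them. In all 673 of the 870 pooled summits fell within the body of a protein-coding gene, and the median gene held 7. Much of the chromosome is genic, with introns over 41.9% of its bases and coding exons over 18.2%. The share of bases in gene bodies was not computed, so the count is not read as an enrichment. The most lay in pan with 43 summits, Cadps and Sox102F with 31 each, sv with 28 and zfh2 with 27. These are long genes: pan had 0.957 summits per kb, Sox102F 0.913, Cadps 0.758 and zfh2 0.691, whereas sv reached 1.14 and the median gene had 0.662. At bt, 52075 bp long, there were 18 summits at 0.346 per kb; bt also contains the 27.5 kb stretch without one. In pan 4 of the 43 summits were in the IDR set, and in Sox102F 1 of 31. Of the summits in the intergenic class, outside genes and promoters, the strongest lay at chr4:424647-425066, 1210 bp upstream of lncRNA:CR43437, with 303 in the pooled list, 168 in the replicate 1 list and 142 in the replicate 2 list. An intergenic peak in an INE-1 fragment, at −2025 bp from a start of fuss, a gene of the Ski/Sno family, had 207, 75.6 and 130 in the same lists. Another intergenic peak, 5696 bp from a start of Sox102F, had 211 in the pooled list, 114 in the replicate 1 list and 88.1 in the replicate 2 list.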

How the data were processed

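ChIP-seq peak lists of D1 were analysed for 2 replicates of 1 group, mapped from the labels. Per the deposited text notes, the authors called peaks against a control file, once per replicate and once on both; the IDR set derives from these lists. The deposited signal and −log10 q value of each peak, and the summit offset, are the authors' values. The q values are tied at their maximum, so peaks were ranked by signal. For the aligner, the caller, the IDR threshold, the signal scale and read depth: not given in the sources used here. Coordinates are dm6, per the labels. Sequence was the NCBI Release 6 assembly with Ensembl release 115 annotation; the last chromosome 4 peak ends at 1320088 of 1348131 bases.

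Each summit took the first that applied of 7 feature classes: a promoter (a start at most 500 bp away), then UTR (5′ before 3′), coding or other exon, and last intron or intergenic. AT content and words were taken in 200 bp windows, and the background in 200 bp tiles. Equal-AT ratios divide the chromosome 4 tiles with a summit by the number expected from the other arms' shares in AT classes of 2 points (5 points with feature class); the computation was tested on simulated data. Intervals are exact Poisson or Clopper-Pearson at 95%. No test over samples was possible with 1 group. Signals were compared only within a list, and replicate values are those of a summit within 100 bp. Centromere-proximal segments began at 22 Mb on 2L and X and at 23 Mb on 3L, and ended at 6 Mb on 2R and at 4 Mb on 3R.

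Genes were named by rule: those nearest the 15 highest chromosome 4 peaks, those containing the 10 highest peaks away from starts, up to 4 per list, the 5 with most summits and the 5 longest with no summit at a start. The members and lists were chosen with earlier results of these data known. Transposable elements, joined regions, coding exons, promoter words and word uniqueness by tile were added after the data were seen, as were ey, RpS3A, PlexA, CG33978, bt, Mpv17, gw, fuss and mav as named genes. Other settings were each list alone, the 15000 highest peaks, midpoints, other windows, bins, limits and overlaps. Python 3.11.15, numpy 2.4.6, pandas 2.3.3, scipy 1.17.1 and matplotlib 3.10.9 were used.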

Additional observations from a re-analysis of the deposited data

How the results depend on the processing

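No paired analysis was possible because there is 1 group and no test over samples. Changed one at a time, the settings below left the density, equal-AT and coding-exon ratios of chromosome 4 above 1 and the AT difference positive. With the IDR set and the centromere-proximal segments set aside together the equal-AT ratio was 0.978, and the IDR ratio within introns was 0.450. Of 87 alternative values over 15 results, 37 lay within 1 SD of the replicates. The replicate lists that set this SD are themselves among the 87. Midpoints could hardly move a value, since the summit of a peak of full width is its midpoint. Part of the 37 was therefore fixed in advance, and the count does not measure how stable the results are. From each replicate list alone, the density ratio was 2.85 to 3.02, the equal-AT ratio 2.19 to 2.29, the ratio at equal AT content and class 2.36 to 2.51, the densest 100 kb bin 1.34 to 1.37 times the chromosome's mean (1.44 in the pooled list), the promoter share 17.9 to 19.1%, the intron share 39.5 to 41.3%, the coding-exon ratio 13.9 to 16.4, the AT difference 0.933 to 1.74 points, AATAT 73.0 to 74.2%, genes with a summit at a start 90 to 91.2%, the median gap 918 to 944 bp, the share among the 3388 highest peaks 7.22 to 8.49% and CGATA at promoters 47.2 to 54.1%. With the IDR set alone the same quantities were 1.97, 1.18, 1.32, 2.02 times the mean, 57.6%, 16.7%, 11.9 (1 peak), 2.96 points, 90.9%, 48.8% and a median gap of 11144 bp. With the 15000 highest peaks the equal-AT ratio was 2.12, the densest bin 1.37 times the mean, the promoter share 27.3%, the intron share 37.4%, the coding-exon ratio 20.5, the AT difference 1.77 points, AATAT 72.7%, genes 86.2%, the median gap 1456 bp and CGATA at promoters 45.1%. Unique tiles gave an equal-AT ratio of 2.14. Without the other arms' centromere-proximal segments the density ratio was 2.63 and the equal-AT ratio 1.93, and joining overlapping peaks gave a density ratio of 2.84. Bins of 50 kb gave a densest bin of 1.62 times the mean, at 50 to 100 kb instead of 1.1 to 1.2 Mb, and bins of 200 kb 1.29; the densest 100 kb bin of replicate 1 was 1.0 to 1.1 Mb. Starts within 250 bp gave 12.4% of summits and 82.5% of genes, and starts within 1000 bp 29.0% and 97.5%. Windows of 100 bp gave AATAT in 47.1% and CGATA at promoters in 31.6%, and windows of 500 bp 94.7% and 73.7%; promoter tiles held CGATA in 16.2% at 100 bp and 56.9% at 500 bp. Replicate overlap was 60.1% with at least 50% of the peak covered and 43.8% by summits. Where the setting changes the window, limit or bin the value moves by construction; for the IDR set and the highest peaks the cause was not tested. Read depth is unknown, so it sets no limit that can be stated.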

Other observations

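The start of mav, a TGF-beta family ligand gene, had a peak whose summit lies in the mir-954 locus, with a signal of 177 in the pooled list, 88.5 in the replicate 1 list and 85.0 in the replicate 2 list. Of the 7 pseudogenes annotated on chromosome 4, 1 had a pooled summit within 500 bp of a start. The counts were 23 of 30 for non-coding RNA genes and 74 of 80 for protein-coding genes. The loci of mir-954 and mir-9385 each enter the 30 more than once, through entries nested within them. For pseudogenes and non-coding RNA genes the share on the other arms was not computed, so their counts describe chromosome 4 only. The pseudogenes CR32009, CR32010 and CR32011 lie in the stretch between 4547 and 40920, where 9.38% of words are unique. The part of read placement in the pseudogene count was not tested. The last IDR peak on the chromosome had a signal of 143 and the highest peak outside the IDR set 141, so the IDR edge falls between neighbouring values.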
